A study of Arabidopsis thaliana with 9 samples.

Results

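The wild type root transcriptome in hypoxia was described from the 3 arrays of Arabidopsis thaliana Col-0, out of 9 arrays in all, chosen by the genotype in their titles. The other 6 arrays held the mutant lines hcr1-1 and hcr1-2, with 3 each, and served only for comparison. All 9 root samples came from plants aged 21 days that grew in hydroponics with ample potassium at a pO2 of 11.1 ± 1.1%. A light period of 16 h at 250 µmol per square metre and second, a constant 20 °C and 70% relative humidity were given for the same plants. Each sample pooled the roots of 5 plants, so 1 array is 1 pool, and the labels call the 3 pools of a genotype biological replicates. No roots grown in normal air are among the 9 arrays. The values below are therefore levels in low oxygen and spreads between pools, with no response to hypoxia measured.

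Plants in oxygen shortage draw their energy more from glycolysis and fermentation, because mitochondrial respiration needs oxygen. A small group of nuclear genes, the core hypoxia genes, is known to be induced by low oxygen in many organs of Arabidopsis. Transcription factors of the ERF-VII group, which are degraded when oxygen is present and persist when it is scarce, act on many of them. Roots of Arabidopsis are also known for many class III peroxidases, which are secreted enzymes of the cell wall, and for ER bodies. ER bodies are compartments of the endoplasmic reticulum filled with beta-glucosidases that take part in defence against herbivores and microbes.

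The deposited values were log2 signals for 38408 rows (sets of probes summarised together). The array annotation pairs 16746 of the rows with exactly 1 gene, 16546 genes in all, and these named rows are described here. The median signal over all rows was 3.46, 3.44 and 3.41 in Col-0 pools 1, 2 and 3. Across the named rows, pools 1 and 2 had a Pearson r of 0.992, pools 1 and 3 of 0.991 and pools 2 and 3 of 0.990, where rows are not independent replicates. Mean signals of the named rows over the Col-0 pools had quartiles of 1.98, 3.50 and 5.22, and the top 10% began at 6.44. A row's signal also depends on how well its probes bind, so an order of rows is an order of array signal and not of transcript number per cell. With 1 array per pool, a difference between pools has no replicate and could not be tested. In a bulk sample, fewer cells of a type and less RNA per cell cannot be told apart.

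Few cell type markers lay on rows with 1 gene. Among root hair markers 2 of 7 did, EXPA7 with a mean of 4.71 ± 0.22 and EXPA18 with 3.71 ± 0.35 (SD, n = 3 pools, as for all means below). The endodermis list gave AT1G61590 at 6.61 and GSO1, a receptor kinase needed for a closed Casparian strip, at 5.65. FACT, which joins fatty alcohols to caffeic acid in the waxes of suberin, had 6.06, and GUT2, an enzyme of xylan synthesis in xylem walls, had 6.55. Markers of shoot tissue were not at the bottom of the scale: LHCB4.1, a light-harvesting protein, had 4.68 ± 0.08 and RCA, the activase of Rubisco, 4.44 ± 0.16. These 2 of 8 listed shoot genes lay above the median of the named rows and below the upper quartile. Phloem and root cap markers had no row with 1 gene.

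Organelle genes held most of the highest signals in Col-0 roots. Of the 30 brightest named rows, 14 were plastid-encoded, 8 carried mitochondrial gene names, 4 were AT2G07 loci and 4 were other nuclear genes. Among the AT2G07 loci are those where chromosome 2 of Arabidopsis is known to hold a copy of the mitochondrial genome. The signal of such copies and that of the mitochondrial genes could not be told apart. The group was formed by locus code alone, and 24 of its 88 rows lay below the median of the named rows, down to 0.97. nad1, a subunit of respiratory complex I, had 11.42, 11.36 and 11.27 in pools 1, 2 and 3, the highest mean of any named row. cox1, a subunit of cytochrome c oxidase, which passes electrons to oxygen, had 11.23, 11.27 and 11.25. These respiratory genes were close to the top in every pool.

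Plastid-encoded rows were bright as a class and steady between pools. Their median signal over 63 rows was 9.36, against 3.48 over the 16571 nuclear rows that were not AT2G07 loci, and 61 of the 63 (96.8%) lay in the top 10%. rpl20, a protein of the plastid ribosome, had 11.22, 11.22 and 11.20. psbA, which encodes the D1 protein of photosystem II, had 10.95, 10.85 and 10.96, and rbcL, the large subunit of Rubisco, had 10.72, 10.72 and 10.74. The dimmest plastid rows were psbM at 6.34 and psbT at 6.08, both encoding small photosystem II subunits. The median SD between pools was 0.050 for plastid rows and 0.078 for the 24 rows with mitochondrial gene names, against 0.137 for all named rows. Brighter rows spread less in general, and named rows at or above the median signal had a median SD of 0.120. Nuclear rows as bright as the organelle rows were not compared as a set.

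Among the nuclear genes that carry a name, a peroxidase, an ER body glucosidase and enzymes of central metabolism led, and 3 genes known by locus code alone (AT2G43150, AT5G20700 and AT3G48140) ranked above GAPC2. PRXR1, a class III peroxidase, had 11.01, 11.05 and 11.02 in pools 1, 2 and 3 (11.03 ± 0.02), the highest nuclear signal. PYK10 (BGLU23), the main beta-glucosidase of root ER bodies, had 10.46, 10.72 and 10.59. cICDH, the cytosolic NADP-dependent isocitrate dehydrogenase, had 10.26, 10.33 and 10.22. The 3 genes kept their order in each pool, with no overlap of their values. GAPC2, the cytosolic glyceraldehyde-3-phosphate dehydrogenase of glycolysis, had 9.98, 9.80 and 10.16, and so spread more widely than the genes above it. APA1, an aspartic proteinase of the vacuole, had 9.73, 9.80 and 9.78, and SBT4.12, a subtilisin-like protease, had 9.76, 9.78 and 9.64.

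**Figure D1:**
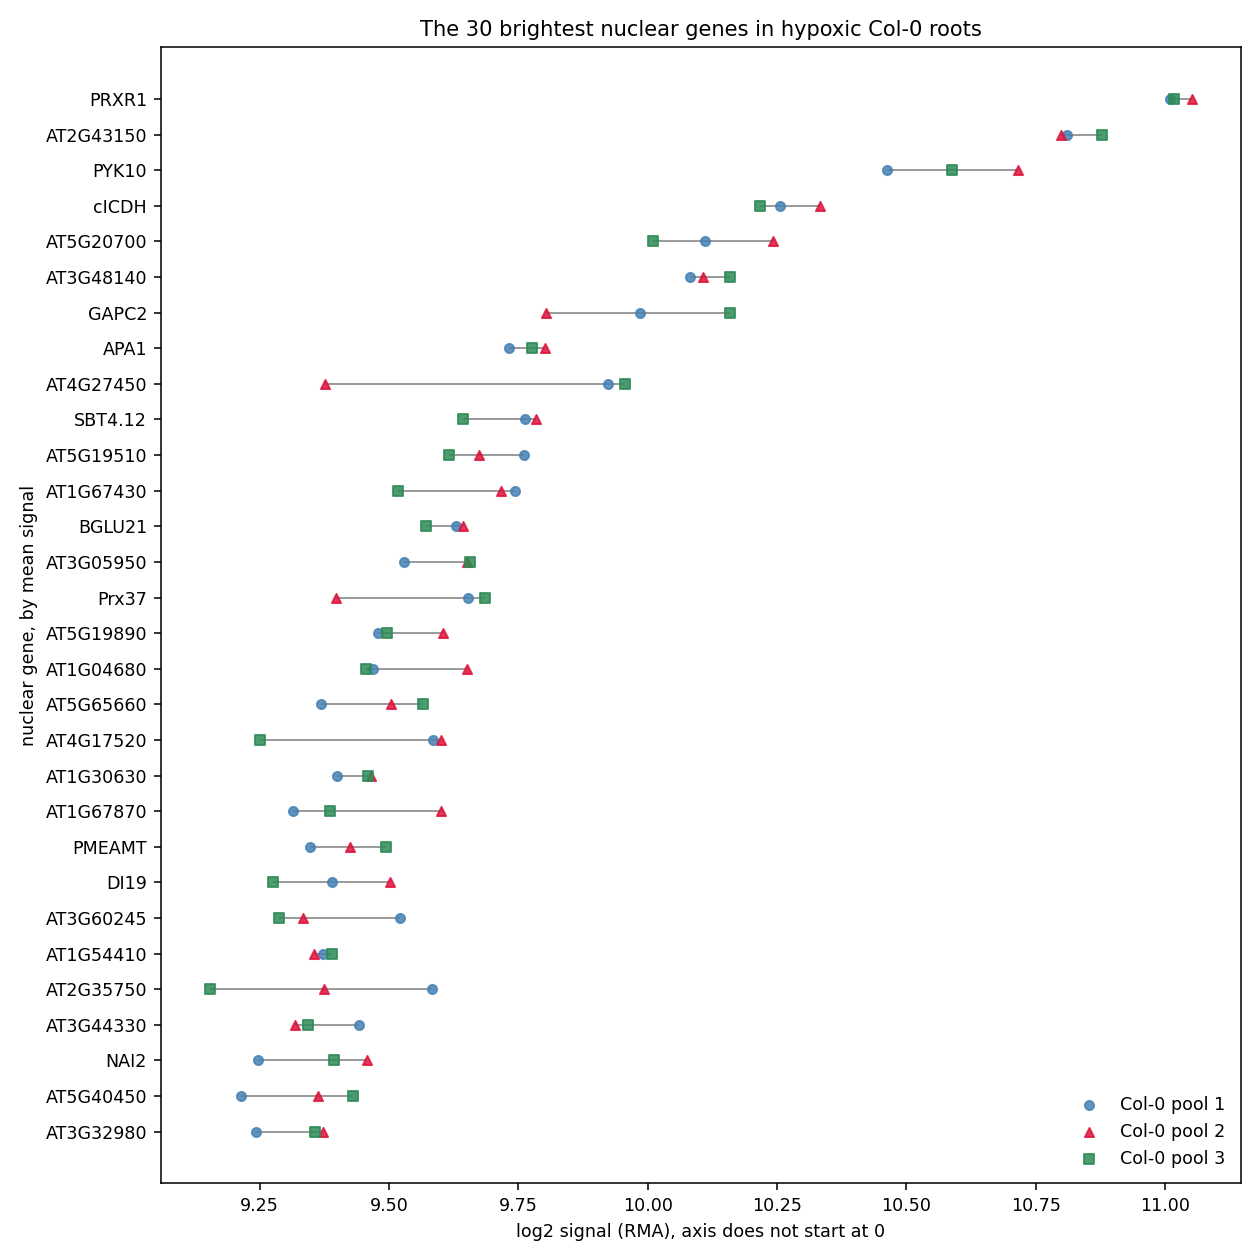
The 30 nuclear genes with the highest mean signal in Col-0 are listed down the page by mean, with log2 signal on the horizontal axis and a symbol for each of the 3 root pools. PRXR1 stands at 11.03 with pools almost on top of each other, and AT4G27450 has the widest spread, with pool 2 at 9.38 and pools 1 and 3 at 9.92 and 9.96.

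Of the 30 brightest nuclear genes, 11 carry a gene name in the tables used and 19 only a locus code. The named ones besides those above were BGLU21 (9.61 ± 0.04) and NAI2 (9.37 ± 0.11), both of ER bodies, the peroxidase Prx37 (9.58 ± 0.16), and PMEAMT and DI19. PMEAMT, a methyltransferase on the way to phosphocholine, had 9.35, 9.42 and 9.49. DI19, a zinc finger protein named for its induction by drought, had 9.39, 9.50 and 9.28. AT1G54410, listed with the synonym HIRD11, a dehydrin, had 9.37, 9.36 and 9.39 and was among the steadiest of the 30. AT2G43150 (10.83 ± 0.04), AT5G20700 (10.12 ± 0.12) and AT3G48140 (10.12 ± 0.04) were the brightest genes with a locus code alone.

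The set of brightest genes was largely shared with the mutants. Of the 30 chosen in Col-0, 27 (90% of either list) were also among the 30 brightest in hcr1-1, and 27 among the 30 brightest in hcr1-2. In limma, with Benjamini-Hochberg adjustment over all 16746 named rows, 0 of the 30 were called between Col-0 and the mean of both mutants. Of all named rows 0 (0%) were called, so a row without a call is not shown to be equal. At an unadjusted p under 0.05 the count was 1 of the 30 and 624 of the 16746. The 1 was AT4G27450, higher in Col-0 by 0.65 on the log2 scale (unadjusted limma p 0.029). The choice left AT3G32980 just inside at 9.32 and AT2G43610 and AT5G19760 just outside at 9.31, so the last places have no firm order. The gap was smaller than the SD of AT3G32980, 0.07.

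Families and lists were then compared by the median signal of their genes. Of 36 with at least 5 measured genes, 8 had a median at or above the upper quartile of the named rows (5.22). Families formed by gene name hold only genes listed under the family's name, so they can be a small part of the family. The aldehyde dehydrogenases, WRKY factors and serine carboxypeptidase-like proteins below were formed in this way. The CCT chaperonin, a ring complex that folds actin and tubulin, came first with a median of 8.17 over 8 of 9 subunits, from 6.26 to 8.88. Glycolysis and fermentation genes followed with 7.68, but only 6 of 20 listed genes had a row with 1 gene. Aldehyde dehydrogenases had 7.01 over 8 genes, with 6 in the top 10% of rows. Cytosolic ribosomal proteins had 6.67 over 149 of 225 listed genes, and 79 of them (53.0%) lay in the top 10%. The other lists at this level were the core hypoxia genes (5.93), WRKY factors (5.93, 7 genes), serine carboxypeptidase-like proteins (5.59, 7 genes) and class III peroxidases (5.35).

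**Figure D2:**
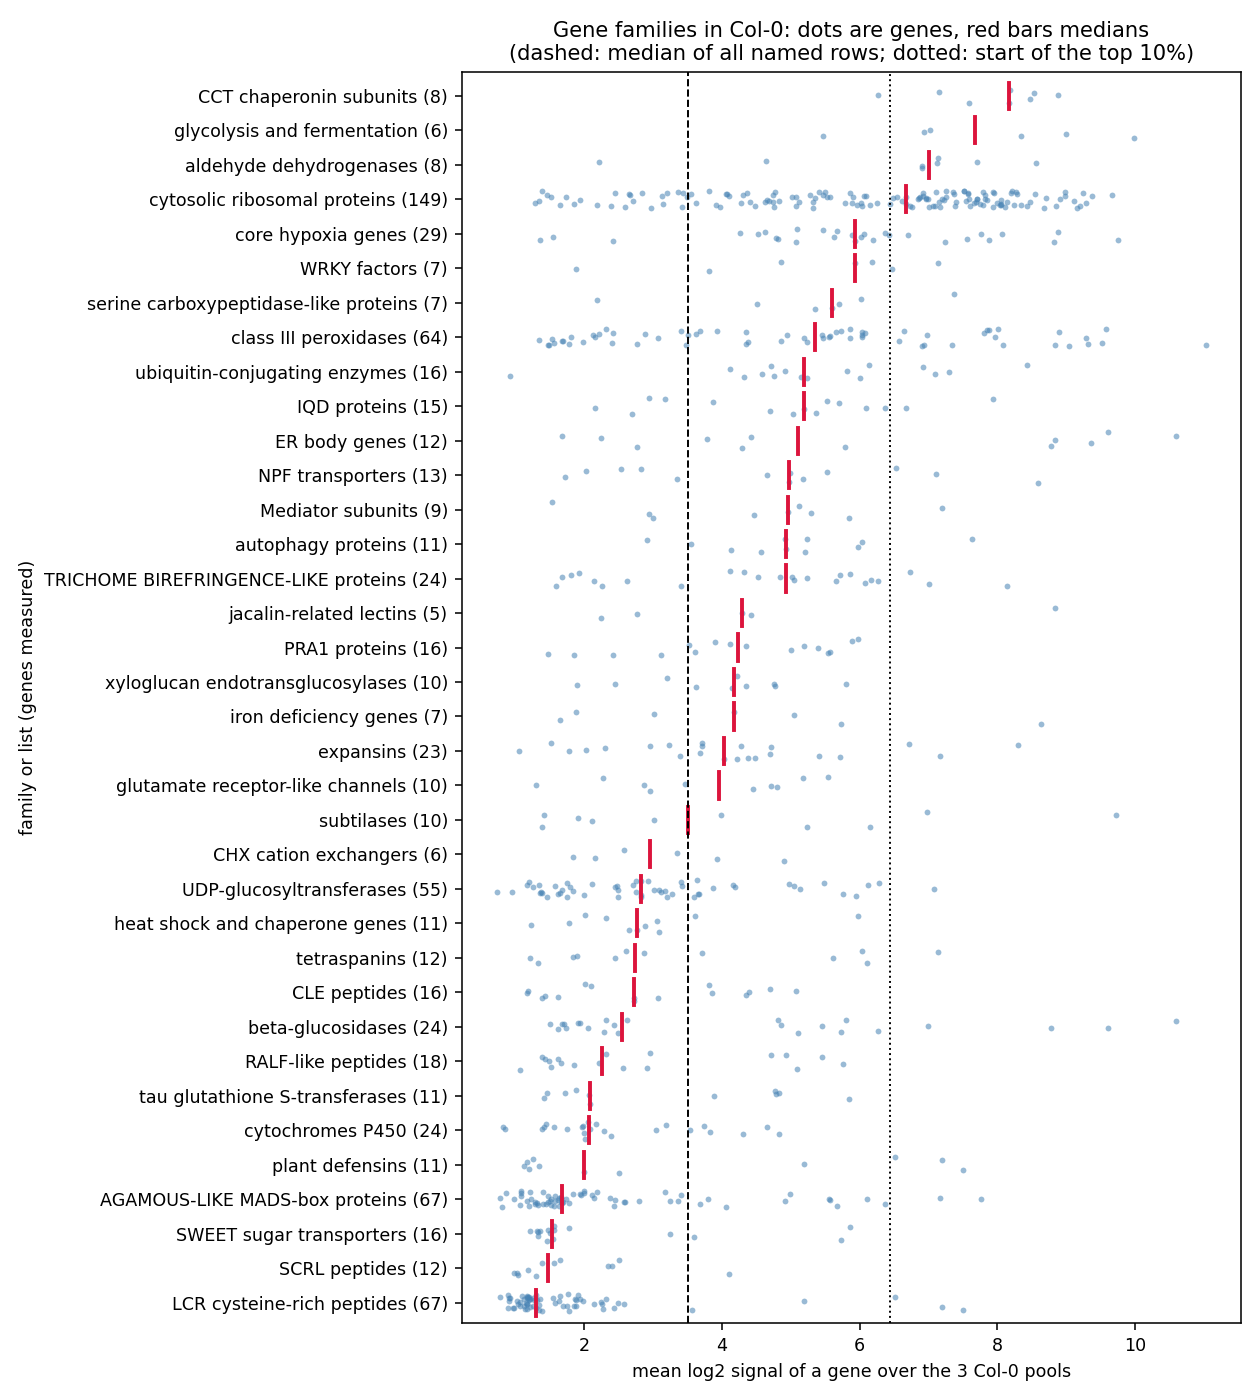
Each dot is a gene, placed by its mean log2 signal over the 3 Col-0 pools, in the families and lists with at least 5 measured genes, ordered by median (red bars). CCT subunits lie together at 6.26 to 8.88, whereas peroxidases and ribosomal proteins run from below 2 to above 9, and LCR peptides have a median of 1.29.

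The peroxidases were a family of extremes. Of 73 listed class III peroxidases 64 were measured, and 20 of these (31.2%) were in the top 10% of rows while 22 lay below the median. PRXR1, Prx37, AT5G19890 and AT3G32980 were among the 30 brightest nuclear genes. AT5G19890 had 9.48, 9.60 and 9.50, and AT3G32980 had 9.24, 9.37 and 9.36. The next members were AT4G30170 at 9.28, AT4G33420 at 9.05 and AT3G01190 at 8.90. Family members of close sequence can share probes, so the split of signal between them is uncertain.

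ER body genes were split in the same way. PYK10, BGLU21, NAI2, the jacalin-related lectin JAL34 (8.77, 8.99 and 8.73) and BGLU22 (8.70, 8.89 and 8.74) were in the top 10%, 5 of 12 measured genes. NAI2 is a protein needed for ER body formation, and BGLU21 and BGLU22 are the close relatives of PYK10. The other 7 measured genes reached at most 5.79, and NAI1, the transcription factor named for its part in ER body formation, had 3.56, 4.13 and 3.64. The beta-glucosidases found by gene name, with PYK10, BGLU21 and BGLU22 included, had a median of 2.55 over 24 genes. Of these, 13 lay below the median of the named rows. BGLU44, at 6.99, was the other member in the top 10%.

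Expansins, which loosen cell walls, had a median of 4.02 over 23 genes, of which 15 lay at or above the median of the named rows and 3 in the top 10%. EXPB3 had 8.32, 8.34 and 8.25, and EXPA4 followed with 7.22, 7.24 and 7.03. Other families had low medians with a few brighter members. Of 16 SWEET sugar transporters with a median of 1.53, SWEET17 (5.86 ± 0.11) and SWEET16 (5.73 ± 0.29), both carriers of the vacuole membrane, were the brightest. AGAMOUS-LIKE MADS-box genes had a median of 1.68 over 67 genes, and AGL79 had 7.73, 7.71 and 7.84. The lowest family median was that of the LCR cysteine-rich peptides, at 1.29 over 67 genes. None of 18 listed PIP and TIP aquaporins and 1 of 20 listed potassium genes had a row with 1 gene. Root water channels and potassium transport were therefore not described here.

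Core hypoxia genes covered a wide range of levels. Of 54 listed genes 29 were measured, 9 of them (31.0%) in the top 10% of rows and 3 below the median. AT4G27450 had the highest signal of the list, with 9.92, 9.38 and 9.96 in pools 1, 2 and 3, and was among the 30 brightest nuclear genes. AT5G10040 had 9.26, 8.00 and 9.36, and AT1G19530 had 8.81, 8.70 and 8.96. In each of these 3 genes pool 2 was the lowest. PDC2, a pyruvate decarboxylase of ethanol fermentation, had 5.65, 4.94 and 5.81. FHL, a partner of phytochrome A in its import to the nucleus, had 4.94, 4.21 and 4.71.

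Pool 2 was the lowest of the 3 Col-0 pools in 28 of the 29 core hypoxia genes, and the exception, AT1G72940, was lowest in pool 3. Over all named rows 33.5% were lowest in pool 2. The mean over the list was 6.12 in pool 1, 5.33 in pool 2 and 6.21 in pool 3. A gene's median departure from its own Col-0 mean was 0.24 in pool 1, -0.52 in pool 2 and 0.34 in pool 3. The median SD of the list was 0.456, against 0.137 over all named rows. Its genes shared 1 low pool, so they are not independent observations.

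The spread between pools was measured on the 8373 named rows at or above the median signal, since dim rows vary more (median SD 0.120 at or above the median and 0.158 below it). Of these, 49 (0.585%) had a range of at least 1 on the log2 scale over the 3 Col-0 pools, which is a 2-fold difference between the highest and lowest pool. Core hypoxia genes were 12 of the 49, and 26 of the 8373 rows were on that list. Pool 2 stood apart on the low side in 26 of the 49 (53.1%), against 11.8% of all 8373 rows. In 8 rows pool 1 was low, in 6 pool 3 was high, in 4 pool 2 was high, in 3 pool 3 was low and in 2 pool 1 was high. Pools 2 and 3 were at least 1 apart in 35 rows, pools 1 and 2 in 22, and pools 1 and 3 in 8. The count was 33 without pool 1, 8 without pool 2 and 21 without pool 3, where a range over 2 pools can only be equal or smaller. Without pool 2, 0 of the 30 rows with the largest SD were core hypoxia genes, against 10 with all pools.

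**Figure D3:**
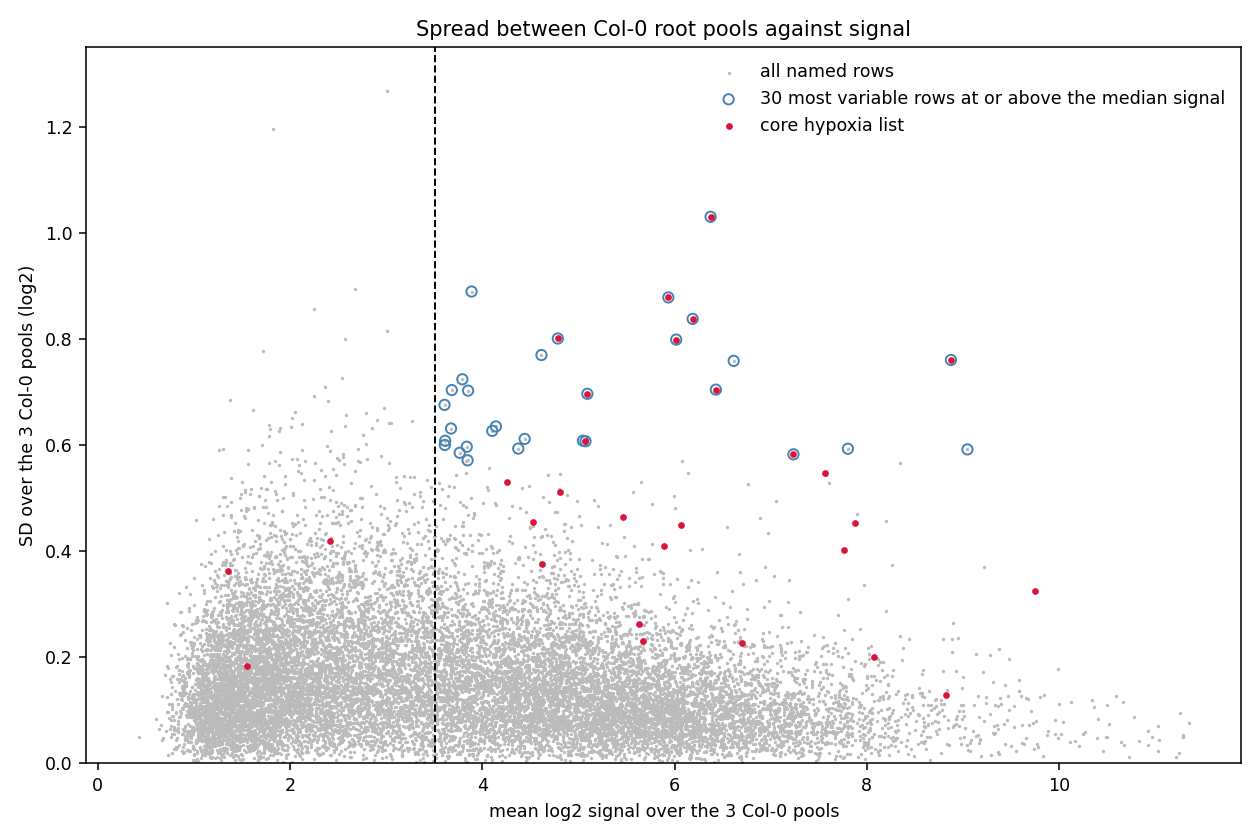
Each grey dot is a named row, with its mean log2 signal in Col-0 on the horizontal axis and its SD over the 3 pools on the vertical axis. The 30 most variable rows at or above the median signal (dashed line) are circled and core hypoxia genes are red. Core hypoxia genes fill 10 of the 30 circles, among them the one with the largest SD, 1.03.

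AT3G23170 had the largest spread of the rows at or above the median, with 6.94, 5.18 and 7.00 in pools 1, 2 and 3 (SD 1.03). AT4G28811 had 4.49, 2.87 and 4.30, and AT2G17850 had 6.32, 4.93 and 6.55. AT3G29970 had 6.23, 5.33 and 7.01. In all 4 rows pool 2 was low, and in the first 3 of them pools 1 and 3 lay close together. AT3G23170, AT2G17850 and AT3G29970 are on the core hypoxia list, and AT4G28811 is not.

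CML38, a calmodulin-like calcium sensor found in stress granules of hypoxic cells, had 5.23, 3.86 and 5.26. AT3G10040, listed with the synonym HRA1, a trihelix factor that restrains an ERF-VII factor, had 6.76, 5.62 and 6.91. AT4G24110 had 6.40, 5.10 and 6.55. Each of these core hypoxia genes had pools 1 and 3 close together and pool 2 more than 1 below both. Outside the list, AT3G48450 (4.92, 3.74 and 5.18), AT2G14247 (6.86, 5.76 and 7.22) and AT5G10050 (8.16, 7.12 and 8.13) had the same order of low pool 2. AT4G32480 was the brightest of the 30 most variable rows, with 9.17, 8.40 and 9.57.

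AlaAT1, the alanine aminotransferase that stores pyruvate and nitrogen as alanine during oxygen shortage, had 8.50, 7.71 and 8.81, a range above 1. It ranked below the 30 most variable rows. Of the 6 measured genes of glycolysis and fermentation 5 were lowest in pool 2, and TPI, the triosephosphate isomerase, was the exception with 8.94, 8.95 and 9.09. In the heat shock list 10 of 11 genes were lowest in pool 2, but 9 of the 11 lay below the median of the named rows, and the list median was 2.76. Its brightest member AT5G48570 had 6.24, 5.63 and 6.07, and AT5G51440 had 3.82, 2.93 and 4.09. The share lowest in pool 2 was 33.5% over all named rows, which is the measure for each of these lists. Iron deficiency genes were lowest in pool 2 in 5 of 7. AT3G12900 of that list had 4.89, 4.53 and 5.72, so that pool 3 was the one that stood apart.

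**Figure D4:**
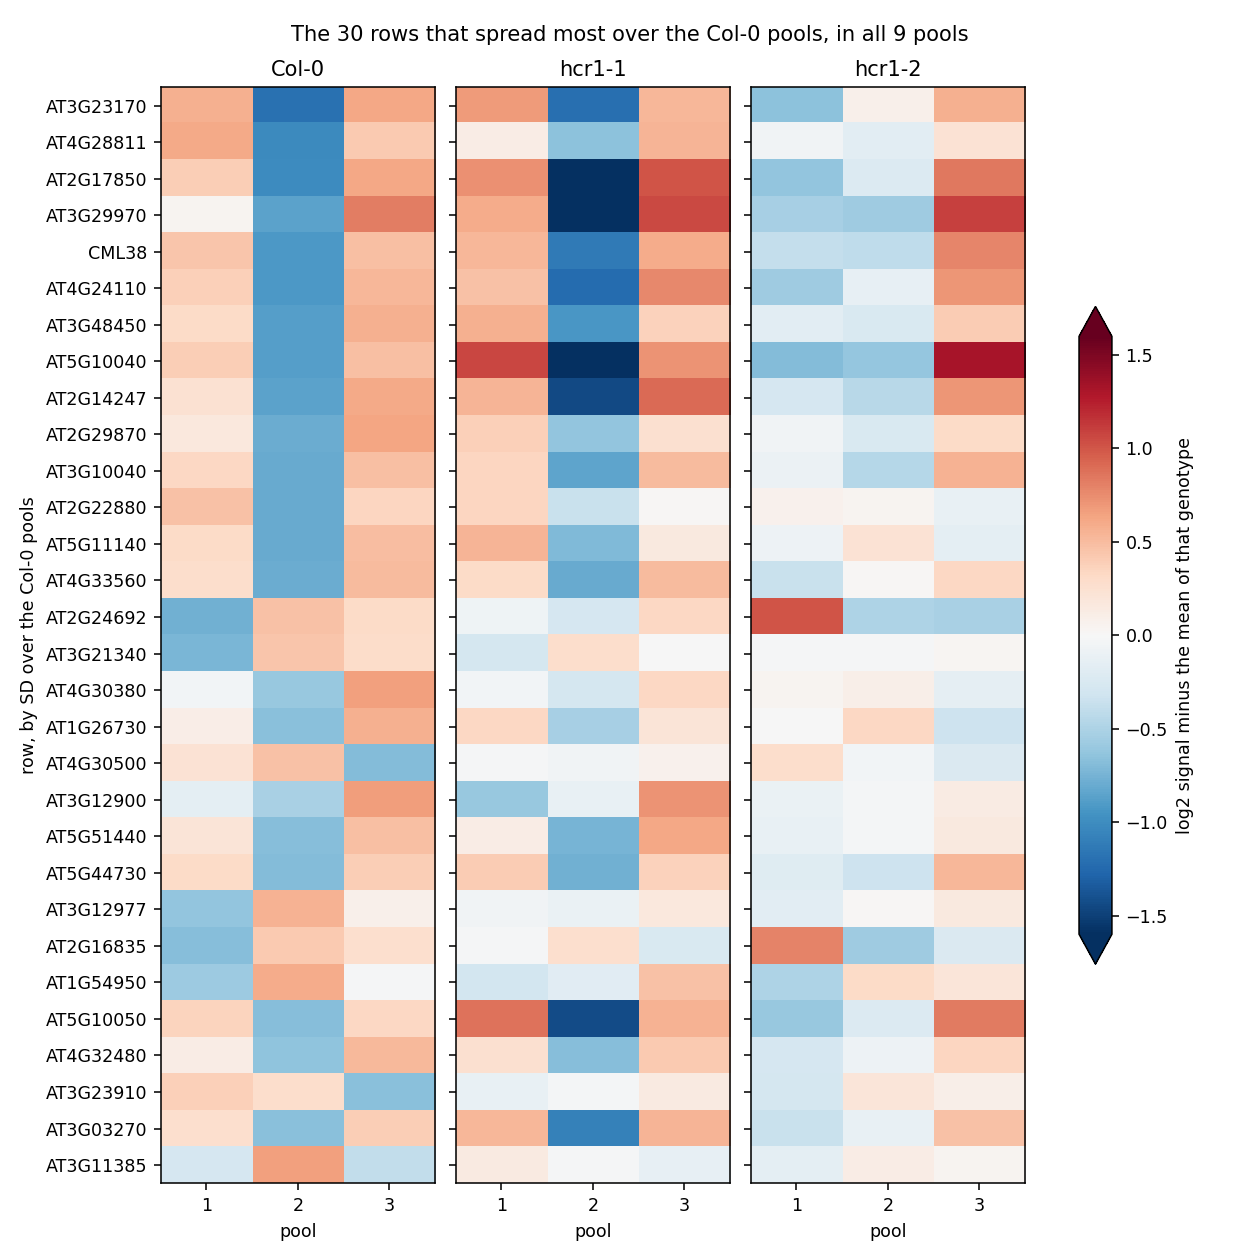
The 30 rows with the largest SD over the Col-0 pools are listed down the page, and colour gives the log2 signal of each pool minus the mean of its genotype, in Col-0, hcr1-1 and hcr1-2 from left to right. Values beyond the ends of the colour bar take its last colour. In Col-0 pool 2 is blue in the rows at the top, and 20 of the 30 rows have a low pool 2.

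Of the 30 most variable rows 20 had a low pool 2 and 10 stood out in another way. AT2G24692 had 2.83, 4.08 and 3.91, AT3G21340 had 3.41, 4.58 and 4.43, and in both pool 1 was low. AT4G30500 had 4.67, 4.90 and 3.75, with pool 3 low. AT1G54950 had 3.79, 4.97 and 4.36, with pool 2 high and pool 1 low. AT4G30380, listed with the synonym EXLB2, an expansin-like protein, had 3.63, 3.07 and 4.33, with pool 3 high. The lowest rank went to AT3G11385 with an SD of 0.57, and AT1G51810 and AT3G60520 just outside also had 0.57. Among the 30, CML38 is the only one whose symbol in the tables is a gene name.

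The largest SD of any named row lay below the median signal. AT1G47395, on the iron deficiency list, had 3.16, 1.68 and 4.20 (SD 1.27), and AT2G13422 had 0.73, 3.10 and 1.62 (SD 1.20). Both span more than 2 on the log2 scale, at signals where rows could not be called present or absent.

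The mutant pools, whose values were not used to choose the rows, also spread in these rows. Of the 30 rows, 24 (80%) in hcr1-1 and 18 (60%) in hcr1-2 had an SD in the top 10% of the rows at or above the median. The median SD of the 30 was 0.656 over the Col-0 pools, by which they were chosen. It was 0.652 over the hcr1-1 pools, where all 8373 rows had 0.128. It was 0.347 over the hcr1-2 pools, where all 8373 rows had 0.145. A range of at least 1 occurred in 1.02% of the 8373 rows in hcr1-1 and 1.09% in hcr1-2. Among the 26 rows with a range of at least 1 and a low pool 2 in Col-0, the range was at least 1 in 22 in hcr1-1 and in 11 in hcr1-2. The other 23 rows with such a range in Col-0 had a smaller spread in the mutants, with median SDs of 0.321 and 0.184. Of these 23, 14 in hcr1-1 and 5 in hcr1-2 had an SD in the top 10%.

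Col-0 and hcr1-1 shared the low pool in the 26 rows with a low pool 2, while hcr1-2 had no single low pool. All 26 of those rows were lowest in pool 2 of hcr1-1, where 38.4% of the 8373 rows were lowest in pool 2. In hcr1-2, 12 of the 26 were lowest in pool 1, 11 in pool 2 and 3 in pool 3. Of the 8373 rows, 56.2% were lowest in pool 1 of hcr1-2, 25.2% in pool 2 and 18.6% in pool 3. Pool 2 thus held a larger share of the 26 than of all these rows, and pool 1 a smaller one. AT3G23170, beside 6.94, 5.18 and 7.00 in the Col-0 pools, had 6.39, 4.51 and 6.24 in pools 1, 2 and 3 of hcr1-1 and 4.06, 4.80 and 5.28 in those of hcr1-2. AT5G10040, beside 9.26, 8.00 and 9.36 in Col-0, had 9.05, 6.20 and 8.70 in hcr1-1 and 5.95, 6.03 and 7.96 in hcr1-2. Both genes lay below every Col-0 pool in pools 1 and 2 of hcr1-2, and its pool 3 lay within the Col-0 range for AT3G23170 and just below it for AT5G10040. Deviations of pools from their group means were then correlated over the 8373 rows at or above the median. Same-numbered Col-0 and hcr1-1 pools had correlations of 0.287, 0.275 and 0.147 for pools 1, 2 and 3. The 6 pairs of other numbers ran from -0.223 to -0.0522. Deviations cancel out within a genotype, so positive same-numbered pairs make the other pairs negative on balance. The same-numbered Col-0 and hcr1-2 pools had -0.103, 0.0983 and -0.0917, and Col-0 pool 3 had 0.151 with hcr1-2 pool 1. The spread in hcr1-1 is therefore not independent of that in Col-0, and whether same-numbered pools shared a tank or a day was not given.

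Between genotypes, none of the 30 most variable rows passed the limma test of Col-0 against the mean of the mutants. At an unadjusted p under 0.05 there were 14 of the 30, against 3.73% of all named rows, and the median of Col-0 minus mutants was 0.62 on the log2 scale. The rows were chosen for their Col-0 spread and move together, so this count describes few independent differences. HCR1 itself (AT3G24715), the Raf-like kinase gene that is mutated in the other lines, had 4.60, 4.85 and 4.88 in Col-0.

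Other lists showed small and even shifts between the Col-0 pools. Cytosolic ribosomal proteins were lowest in pool 3 in 101 of 149 genes and highest in pool 1 in 104, against 34.7% and 33.4% of all named rows. Bright rows in general leaned the same way: of the 8373 rows at or above the median, which hold 124 of the 149 genes and all 8 CCT subunits, 44.7% were lowest in pool 3 and 36.2% highest in pool 1. The median departures of the ribosomal protein genes were 0.11 in pool 1, -0.01 in pool 2 and -0.09 in pool 3. AT1G67430, the brightest of them, had 9.74, 9.72 and 9.52. AT5G07090 was the only ribosomal protein gene at or above the median with a range of at least 1, with 4.62, 3.94 and 3.61. All 8 CCT subunits were lowest in pool 3, for instance AT5G26360 with 9.03, 8.98 and 8.64. These shifts were below the 2-fold range in all 8 subunits.

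ER body genes ran against the core hypoxia genes in pool 2. Of the 12 measured 9 were highest in pool 2 and 0 were lowest there, against 31.8% and 33.5% of all named rows. Bright rows leaned the same way: of the 8373 rows at or above the median, which hold 9 of the 12, 39.0% were highest and 25.1% lowest in pool 2. The median departure of the ER body genes in pool 2 was 0.12, and their median SD was 0.160. NAI1 had 4.13 in pool 2 against 3.56 and 3.64 in pools 1 and 3. Class III peroxidases were lowest in pool 1 in 35 of 64 genes, against 31.8% of all named rows. AT3G01190 had 8.60, 9.11 and 8.97 and AT2G39040 had 5.30, 6.05 and 5.84, with pool 1 low in both, whereas AT5G39580 had 7.29, 6.55 and 6.98. The direction was thus not shared by all peroxidases.

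**Figure D5:**
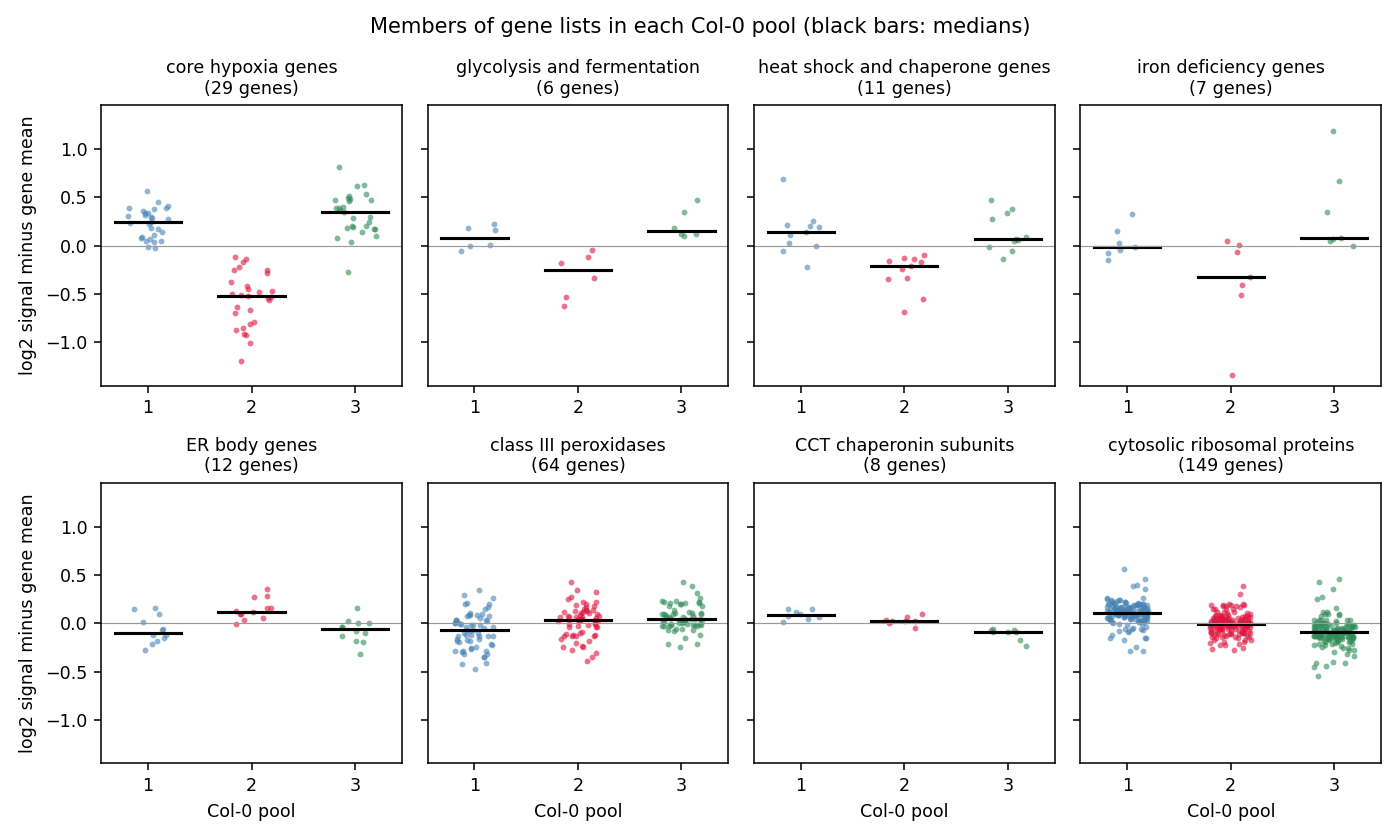
Dots are the genes of 8 lists, placed by Col-0 pool, with the log2 signal of the gene minus its mean over the 3 Col-0 pools on the vertical axis and black bars at the medians. Core hypoxia genes lie at a median of -0.52 in pool 2, ER body genes at 0.12 in pool 2, and ribosomal proteins at 0.11 in pool 1 and -0.09 in pool 3.

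By median SD of a list, markers of cell types were closer between the pools than the core hypoxia genes (0.456). Their medians ran from 0.069 for endodermis to 0.287 for root hair, the latter above the 0.137 of all named rows. AT1G61590 had 6.65, 6.55 and 6.64, GUT2 had 6.49, 6.65 and 6.50, and AUR1, a kinase of dividing cells, had 5.87, 5.83 and 5.77. EXPA18 had 3.56, 3.45 and 4.11, and EXPA7, of the same root hair list, had 4.47, 4.76 and 4.91. EXPA18 thus spread more widely than some core hypoxia genes, such as AT4G27450 with 9.92, 9.38 and 9.96. The shoot marker RCA had 4.30, 4.42 and 4.62. For each list only 1 or 2 genes were measured, and their part in the spread of the hypoxia genes was not tested.

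The steadiest bright rows give the floor of this spread. Among rows in the top 5% by signal, COR47, a dehydrin induced by cold, had 8.66, 8.65 and 8.66, and AT4G25900 had 7.46, 7.47 and 7.47. All 10 of the steadiest had an SD that rounded to 0.01 or less, and rbcL was the one organelle gene among them. In the mutants the SD of COR47 was 0.016 over the hcr1-1 pools and 0.082 over the hcr1-2 pools. That of AT4G25900 was 0.068 and 0.183.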

How the data were processed

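Root RNA (100 ng per sample, per the labels' protocols) was labelled with biotin and hybridised to Affymetrix Arabidopsis Gene 1.1 ST arrays. The deposited values are log2 signals, which the authors made with RMA in Affymetrix Expression Console, per the submitters' processing notes. RMA corrects for background, gives all arrays 1 distribution and summarises the probes behind each row, so a difference in total signal would be lost. Tool versions and the build are not given in the sources used here. Scanner files were not used, so no row could be called detected. Having 3 arrays per genotype limits the precision.

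Gene names came from the platform annotation and were updated through a RefSeq table of TAIR10.1 (16601 of 16746 rows matched). Rows with several genes (758) or not listed (20904) were left out, and a gene with several rows is given by the one with the highest mean. Of the named rows, 30 had the values of another row.

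Means, SDs and ranges were computed over the 3 Col-0 arrays in Python 3.11.15. Named genes were the 30 nuclear rows with the highest mean, the 30 rows at or above the median with the largest SD, the 10 steadiest rows in the top 5%, and list members. Lists were compiled by locus code or gene name from general knowledge. The members and lists were chosen with earlier results of these data known, and single members were named after their values were seen. Col-0 was tested against the mean of both mutants with limma 3.58.1 in R 4.3.3 over all 9 arrays, two-sided, with Benjamini-Hochberg adjustment at 0.05. On simulated data this comparison over 16746 rows found 99.4% of 200 rows changed 3-fold. The simulated rows varied independently, and before the change 1 mean served all genotypes. That share need not hold for rows that spread widely and move together. AT5G10040, for instance, differed by 1.56 on the log2 scale between Col-0 and the mutants and was not called. The limma p-values set the difference between genotypes against the spread between pools within a genotype. The alternatives were quantile normalization, median centring, other filters, all rows, another measure of spread, the replicate number as a block, and leaving out each array.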

Additional observations from a re-analysis of the deposited data

How the results depend on the processing

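The count of 49 rows with a range of at least 1 between the Col-0 pools became 131 with no filter on dim rows, 14 with rows at or above the upper quartile alone and 661 over all rows of the table, unnamed ones included. Leaving out 1 pool gave 8 to 33. Of the 30 most variable rows, 27 remained with quantile normalization, 28 with median centring, 22 without pool 1, 4 without pool 2 and 20 without pool 3. A choice by SD relative to rows of the same mean shared 16 of the 30 and held 12 core hypoxia genes. The 30 brightest genes shared 27 to 30 with each alternative, and 8 to 10 families reached the upper quartile. Of 240 recomputed values of named genes, 238 stayed within a set limit. The limit was 1 SD for the means of the brightest genes, and a fixed share of the value for the SDs of the most variable rows. The limma count of 0 between Col-0 and the mutants ran from 0 to 2 when 1 array was left out; the 2, without hcr1-1 replicate 3, were AT3G24715 (HCR1) and AT5G35940. With the replicate number as a block it was 0, with 658 rows at an unadjusted p under 0.05. Deviations of same-numbered pools correlated above 0.1 in all 3 pairs of Col-0 and hcr1-1 but in 4 of 9 pairs over the 3 genotypes. Pairs of other numbers did so in 4 of 18, up to 0.151, none of them between Col-0 and hcr1-1. That absence adds nothing, since deviations cancel out within a genotype and positive same-numbered pairs make the others negative on balance. By the same-numbered pairs alone, the numbers tie Col-0 to hcr1-1 and not to hcr1-2. The comparison with both mutants was left without the block. Batches could not be examined without scan dates, and 3 pools cannot separate a plant effect from an array effect.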
